A study of Mus musculus with 20 samples.

Results

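Genes of mitosis and the G2/M transition were followed through a time course of IKZF1 induction in mouse pre-B cells. The group held 47 genes of the 56239 in the count table, named as G2/M cyclins, mitotic kinases, spindle and kinetochore genes. They were matched by symbol to Ensembl gene identifiers. The rule uses function and no measured value, though the genes were chosen with earlier results of these data known. B3 cells, a mouse pre-B line first obtained from a lymphoma, were transduced by retrovirus with IKZF1 fused to the ERt2 domain, and transduced cells were sorted by GFP. The fusion protein enters the nucleus when 4-hydroxytamoxifen (4-OHT) is added. Untreated cells (0 h) and cells given 500 nM 4-OHT for 0.5, 1, 2, 6, 12, 15, 18, 21 or 24 h were compared, all of them with the same construct, at 2 libraries per time point and 20 libraries in all. Cells without the construct were not analysed here, so 4-OHT and IKZF1 entry cannot be told apart. Untreated cells were sequenced at 0 h only, so a change with hours in culture cannot be told apart either. RNA bound to chromatin, which is enriched for transcripts still being made, was sequenced, and the reads counted per gene included introns.

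Progress into mitosis depends on cyclin B and CDK1, a kinase held back by inhibitory phosphates until CDC25 phosphatases remove them. Polo and Aurora kinases then drive spindle assembly, kinetochores attach chromosomes to microtubules, and the spindle checkpoint keeps the anaphase-promoting complex (APC/C) inactive until attachment is complete. Most of these genes are transcribed late in the cell cycle by B-MYB (Mybl2) and FOXM1 acting with the MuvB complex, and are kept silent in resting cells by the DREAM complex. In bulk RNA, a smaller share of cells in G2 and mitosis and less RNA per such cell cannot be told apart.

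The libraries held from 33296158 to 46868954 counts, with a median of 40943260. Levels are given as CPM (counts per 1000000 counts of the library, after TMM scaling), and fold changes as log2 values against 0 h from edgeR's quasi-likelihood test, fitted to 16601 genes with Benjamini-Hochberg adjustment. Genes past an adjusted p of 0.01 and a fold change of 2 are said to be called, down or up. The labels do not say that the libraries of a time point came from separate cultures, so p-values measure a spread between libraries that may be technical. That spread is pooled over all time points. For the 0 h libraries, the baseline of all comparisons with 0 h, the sample descriptions and the column names number the replicates differently, and whether they are repeat libraries of 1 culture cannot be told from the labels. The replicates of 12 h and 18 h differed more than others, with a chi-square per degree of freedom of 9.95 and 14.9 against 1.26 to 1.77 from 0 to 6 h and at 15 h, and it was 4.78 at 21 h and 2.58 at 24 h. Of 10 pre-B and B lineage markers 9 were detected, with a summed level of 8174 to 16638 CPM per library, and Rag1 was listed at 0. Markers of T and NK cells (7 genes), myeloid cells (8), erythroid cells and megakaryocytes (7) and stroma (6) summed to at most 3.64 CPM in any library, and Itgam, S100a8, S100a9, Hbb-bs, Pf4 and Cxcl12 were listed at 0. The myeloid sum went from 1.48 and 1.70 CPM at 0 h to between 0.289 and 0.472 after 24 h, and its part in the results was not tested.

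Of the 47 genes, 46 passed the filter of at least 10 counts in at least 2 libraries. The remaining gene, Prc1 (ENSMUSG00000038943), which bundles microtubules of the spindle midzone, was listed at 0 in all 20 libraries, where 3 counts would be at most 0.0901 CPM. That limit covers counting error only, and whether annotation or counting set the zeros was not tested. Rccd1, which overlaps Prc1 on the other strand, was counted at 20.2 and 19.3 CPM at 0 h. Levels per kilobase of gene span compare genes only roughly, since exons and introns are both counted and their shares differ between genes. At 0 h these levels ran from 1.09 CPM per kb for Pttg1, which encodes securin, to 23.2 CPM per kb for the proliferation antigen gene Mki67. The next highest were the condensin gene Smc4 at 14.0 CPM per kb, Top2a at 12.9 and Incenp at 12.1.

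Most of the mitotic genes passed the 2-fold threshold only at 21 or 24 h. At 24 h 38 of 46 were called down, against 20.1% of all genes tested, and 1 was called up, against 20%. Their median log2 fold change at 24 h was -1.68, while that of all genes was -0.011. At 30 min edgeR and DESeq2 called none down or up, against 0.41% and 0.0542% of all genes by edgeR, although 16 were lower and 3 higher at an unadjusted p under 0.05, where 12.5% of all genes were lower and 13.3% higher. At 1 h 2 members were down (4.84% of all genes) and none up (2.33%), and the same 2 genes, Ccnb1 and Mybl2, were down at 2 h (6.91% down and 6.25% up among all genes), again with no member up by edgeR or DESeq2. At an unadjusted p under 0.05, 18 were lower and 9 higher at 1 h (24.2% and 27.1% of all genes), and 20 were lower and 11 higher at 2 h (30% and 31%). With the fold threshold, 4.35% of the members were down at 1 and at 2 h, no more than in the whole table. Smaller falls passed the adjusted p more often than in the whole table, as the counts by adjusted p alone show. Such counts also depend on how deeply a gene is counted, and genes of similar level were not compared.

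At 6 h 2 members were down (9.13% of all genes) and 1 was up (10.9%). The counts were 3 down and 1 up at 12 h, where 9.92% and 13.2% of all genes were called, and 4 down and 1 up at 15 h, where the shares of all genes were 13.1% and 15.3%. At 18 h 9 members, or 19.6%, were down, near the 17.6% of all genes, and 1 was up against 19.1%. The share then rose to 60.9% at 21 h, with 28 down against 19.4% and 1 up against 20.1%, an up call that several settings remove, and to 82.6% at 24 h. Over the whole course 39 of the 46 members changed, against 51.9% of all genes. All comparisons with 0 h share the same 2 untreated libraries.

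**Figure D1:**
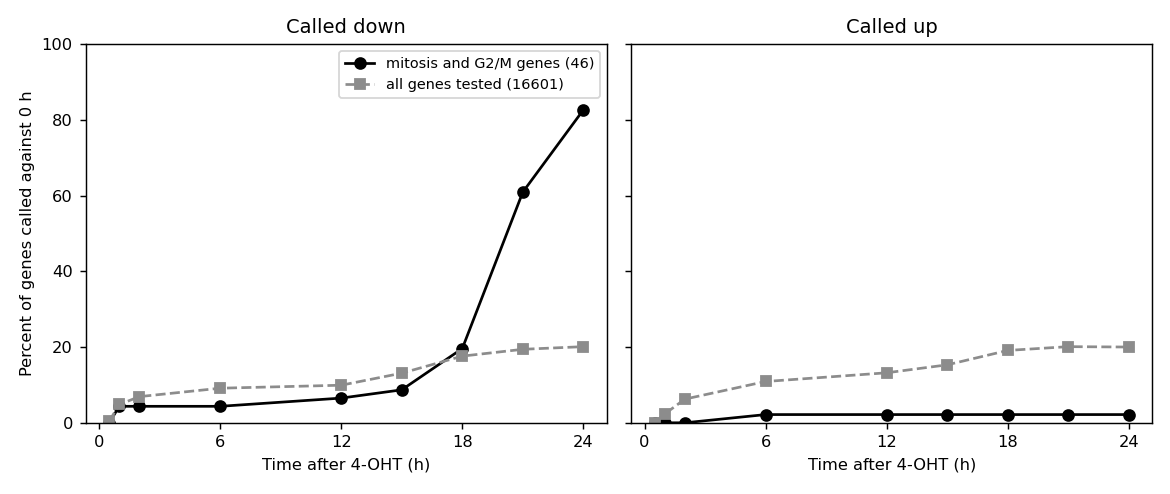
Percent of genes called against 0 h (y axis, 0 to 100) by hours after 4-OHT (x axis), called down on the left and called up on the right. Black circles are the 46 mitosis and G2/M genes tested and grey squares all 16601 genes; the black line on the left lies at or below the grey one up to 15 h and near it at 18 h, and reaches 82.6% at 24 h, while that on the right stays at 0 or 1 gene.

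By adjusted p alone, with no fold threshold, 7 members were lower and 1 higher at 30 min, where 4.74% of all genes were lower and 3.7% higher. At 1 h 11 were lower and 5 higher (17.1% and 19.2% of all genes). At 2 h 20 members, or 43.5%, were lower against 23.8% of all genes, and 7 were higher against 23.9%. At 6 h 19 were lower and 9 higher (27.3% and 30%). At 12 h the balance was the other way, with 20 members, or 43.5%, higher against 31.2% of all genes and 10 lower against 29.5%, and with either other scaling 20 were again higher. The members lower and higher by this rule were 26 and 8 at 15 h (32.6% and 33.1% of all genes) and 37 and 6 at 18 h (36% and 35.3%). At 21 h they were 42 and 1 (36% and 35.7%) and at 24 h 45 and 1 (36.1% and 35.4%).

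Up to 12 h members moved both ways, and their median stayed near 0. The median log2 fold change was -0.052 after 30 min, -0.020 after 1 h, -0.060 after 2 h and -0.058 after 6 h, and 0.066 after 12 h. It was -0.22 after 15 h, -0.64 after 18 h and -1.14 after 21 h. The mean level was highest at 0 h for 12 members and at 12 h for 21 members, and lowest at 24 h for 45 of 46. The shares of all genes with these times were not counted.

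From 12 h on, nearly all members moved down in each interval. From 6 to 12 h 37 members moved up and 9 down, with a median log2 change of 0.18. From 12 to 15 h 45 of 46 moved down (median -0.32), from 15 to 18 h all 46 (median -0.35), from 18 to 21 h all 46 (median -0.50) and from 21 to 24 h 45 (median -0.45). From 6 to 24 h the median of all genes in each interval lay between -0.012 and 0.0025. How many of all genes moved up or down was not counted. The largest fall of any member within one of these intervals was 0.92 on the log2 scale, less than a 2-fold change. Added together the steps were larger: 24 h against 12 h, a comparison chosen after the data were seen, gave 41 members down (9.05% of all genes) and none up (6.43%), with log2 changes from -2.22 to -0.59. Against 6 h, 40 were down at 24 h (12.8% of all genes) and none up (10.9%). No member was higher at 24 h than at 6 h or 12 h even at an unadjusted p under 0.05, and DESeq2 called 0 up in both comparisons.

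**Figure D2:**
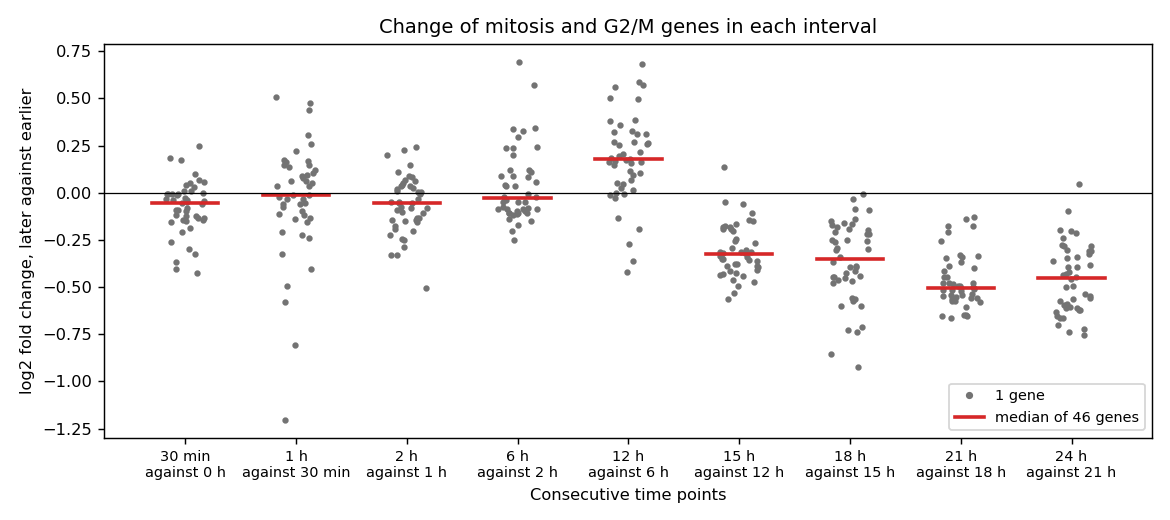
Log2 fold change of each of 46 mitosis and G2/M genes (grey points) between consecutive time points (x axis), with the median as a red bar and no change as a black line. Medians lie between -0.054 and 0.18 up to 12 h and between -0.50 and -0.32 from 12 h on, where almost all points lie below 0.

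The members were first called down at different times. Ccnb1 and Mybl2 were called down from 1 h on, Cdc25a from 12 h, Plk4 from 15 h, and Aurka, Birc5, Cdk1, Incenp and Ncapd2 from 18 h. A further 19 joined at 21 h, and 10 at 24 h (Bub1, Cenpe, Cenpf, Ect2, Kif20a, Kif2c, Mki67, Ncapg, Nek2 and Ttk). Each of these genes stayed called down at every later time point. The other 8 tested members were never called down, namely Aspm, Ccnb2, Cdc25b, Cenpa, Ndc80, Pttg1, Racgap1 and Smc4.

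**Figure D3:**
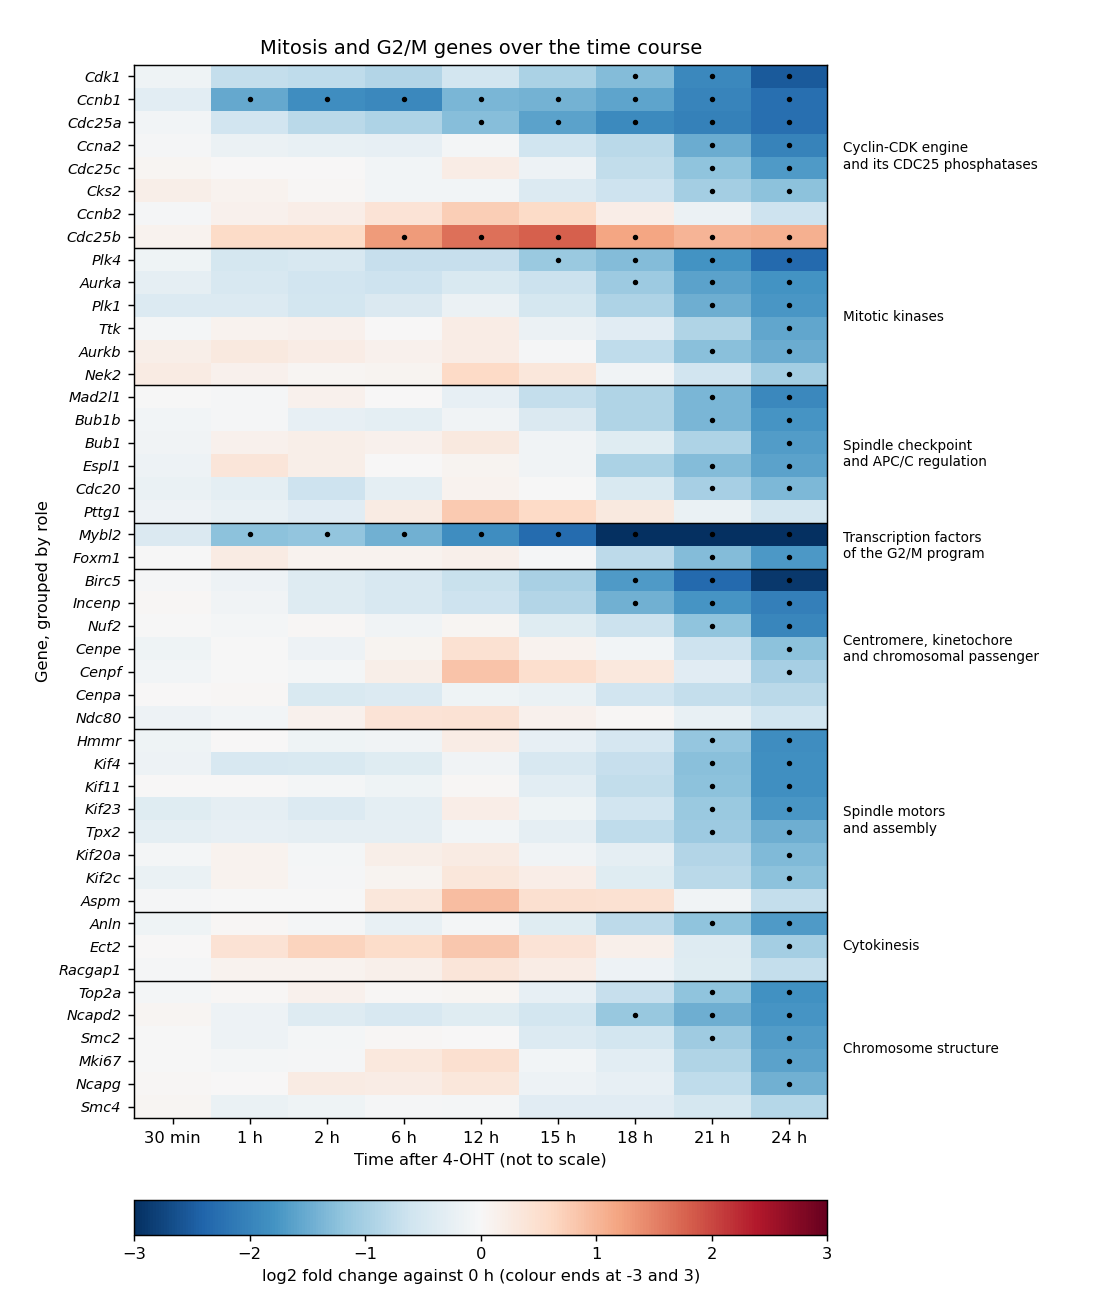
Log2 fold change against 0 h (colour, blue lower and red higher, ending at -3 and 3) of 46 genes (rows, grouped by role and ordered by the value at 24 h) at 9 time points (columns, not to scale). Black dots mark genes called at that time; Ccnb1 and Mybl2 carry dots from 1 h, most rows only at 21 or 24 h, and Cdc25b is the red row.

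Ccnb1 and Mybl2 were the first members called down, and Cdc25b was the 1 called up. Plk1 was called down from 21 h, though by adjusted p alone it was already lower at 30 min (log2 fold change -0.40). Promoter windows of these 4 members are shown. They are RefSeq sequences on GRCm38.p6, from 250 bases before the annotated start to 50 after, 5′ to 3′ on the gene's strand. Capitals mark letters that match a CHR element (TTTGAA or TTCGAA) or a CCAAT box (CCAAT), through which MuvB complexes and NF-Y are known to act on mitotic genes, or the IKZF1 core motif (TGGGAA), on either strand. E2F motifs (TTTCCCGC, TTTGGCGC or TTTCGCGC) were searched too and match none of the 4 windows. Ccnb1 lies at chr13:100786437-100786736 on the minus strand, Mybl2 at chr2:163054385-163054684, Plk1 at chr7:122159185-122159484 and Cdc25b at chr2:131186698-131186997 on the plus strand.
Ccnb1: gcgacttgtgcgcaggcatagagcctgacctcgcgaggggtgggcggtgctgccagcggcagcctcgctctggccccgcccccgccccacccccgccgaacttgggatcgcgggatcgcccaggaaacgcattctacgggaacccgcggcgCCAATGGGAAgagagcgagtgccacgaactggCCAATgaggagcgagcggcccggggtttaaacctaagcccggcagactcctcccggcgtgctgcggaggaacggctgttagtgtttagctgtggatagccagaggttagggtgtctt
Mybl2: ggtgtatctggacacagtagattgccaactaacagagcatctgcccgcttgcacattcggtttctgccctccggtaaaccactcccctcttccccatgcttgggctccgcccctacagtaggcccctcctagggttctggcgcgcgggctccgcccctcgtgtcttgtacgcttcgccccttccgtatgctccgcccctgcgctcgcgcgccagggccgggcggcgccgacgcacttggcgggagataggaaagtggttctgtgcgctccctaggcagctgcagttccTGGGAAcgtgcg
Plk1: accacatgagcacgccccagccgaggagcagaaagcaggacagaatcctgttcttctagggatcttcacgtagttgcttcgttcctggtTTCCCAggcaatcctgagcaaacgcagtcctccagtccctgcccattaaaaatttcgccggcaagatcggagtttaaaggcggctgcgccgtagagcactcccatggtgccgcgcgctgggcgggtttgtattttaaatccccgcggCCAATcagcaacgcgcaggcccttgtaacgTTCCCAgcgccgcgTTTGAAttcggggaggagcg
Cdc25b: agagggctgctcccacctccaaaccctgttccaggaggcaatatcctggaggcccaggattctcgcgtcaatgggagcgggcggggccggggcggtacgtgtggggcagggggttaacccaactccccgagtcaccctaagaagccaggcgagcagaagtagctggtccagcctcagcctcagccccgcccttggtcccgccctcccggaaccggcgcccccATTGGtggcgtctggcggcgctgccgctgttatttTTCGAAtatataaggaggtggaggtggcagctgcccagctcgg
In Ccnb1 the run of capitals CCAATGGGAA is a CCAAT match and an IKZF1 core match that share 1 base, and a second CCAAT match follows. In Mybl2 the IKZF1 core letters lie 38 to 43 bases after the RefSeq start base, and no CHR or CCAAT letters match. The GENCODE M21 start of Mybl2 lies 52 bases after the RefSeq start, beyond these letters. Plk1 holds 2 IKZF1 core matches on the minus strand, 1 CCAAT and 1 CHR match, and Cdc25b holds a CCAAT match on the minus strand and a CHR match.

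Windows were matched for 39 of the 47 members, without Ccna2, Cdc25c, Aurkb, Foxm1, Incenp, Kif20a, Tpx2 and Smc4. CHR letters were in 28 of the 39 (71.8%), against 19.2% of all 32851 windows of 300 bases, and CCAAT letters in 30 (76.9%) against 37.4%. Both were in 25 (64.1%) against 7.52%. E2F letters were in 4 (10.3%) against 1.84%, and the IKZF1 core in 8 (20.5%) against 25.6%. The 4 members called down by 15 h, Ccnb1, Mybl2, Cdc25a and Plk4, all lacked TTTGAA and TTCGAA, the only CHR spellings searched, in their windows. So did 7 members called later or never called down, Birc5, Cenpe, Cks2, Mad2l1, Nek2, Nuf2 and Pttg1. The observation on the 4 members was made after their time courses were seen and was not tested. Windows follow RefSeq starts, which lay 84, 52, 0 and 68 bases from the GENCODE M21 starts of Ccnb1, Mybl2, Cdc25a and Plk4. The distance was 169 bases for Mad2l1, 270 for Pttg1, 328 for Kif4 and 3867 for Kif2c. Which start these cells use was not tested. A match describes letters only, and its absence says nothing about a factor.

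Among cyclins, CDK1 and their CDC25 phosphatases, 6 of 8 genes were down at 24 h and 1 was up, with a median log2 fold change of -1.86. Ccnb1, which encodes cyclin B1, the partner of CDK1 in mitotic entry, was at 74.1 and 71.8 CPM at 0 h, 58.2 and 58.5 after 30 min and 25.4 and 25.3 after 1 h. It was at 18.96 and 19.12 CPM at 6 h, 31.6 and 25.1 after 12 h and 16.2 and 14.4 after 24 h. Both libraries of every time point from 30 min on lay below both untreated libraries, and the 12 h libraries lay above those of 6 h. Ccnb1 fell by 1.53 ± 0.072 on the log2 scale at 1 h (SE, adjusted p = 1.54e-13) and by 2.26 ± 0.078 after 24 h (adjusted p = 6.59e-17). Its pseudogene Ccnb1-ps had at most 3 counts in any library.

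Cdk1, the mitotic kinase itself, was at 151 and 149 CPM at 0 h, 86.5 and 90.2 after 2 h, 105 and 98.8 after 12 h and 25.7 and 26.6 after 24 h. Its log2 fold change was -0.76 after 2 h, past the adjusted p but not the fold threshold, and -2.52 ± 0.044 after 24 h (adjusted p = 6.97e-22). Cdc25a, which acts on CDK2 as well as CDK1, went from 115 and 114 CPM at 0 h to 65.7 and 65.6 after 2 h, 47.47 and 46.98 after 12 h and 23.6 and 24.5 after 24 h. Its libraries at 12 h lay below those of 6 h, which were at 59.9 and 61.2 CPM. Its log2 fold change was -1.28 ± 0.041 after 12 h (adjusted p = 7.62e-17) and -2.25 ± 0.045 after 24 h (adjusted p = 4.90e-21).

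Cdc25b, a phosphatase that starts CDK1 activation at the centrosome in G2, was the 1 member called up at any time. Its level was 15.9 CPM in both libraries at 0 h, 38.9 and 38.0 after 6 h, 48.3 and 51.6 after 12 h, 56.4 and 53.7 after 15 h and 33.9 and 32.5 after 24 h. All induced libraries lay above the untreated ones, and those of 15 h were the highest. The log2 fold change was 1.79 ± 0.071 after 15 h (adjusted p = 1.47e-15) and 1.06 ± 0.074 after 24 h (adjusted p = 1.52e-11). Scaled by library totals alone, the value at 24 h was 0.81 and the gene was not called, as also in a test against a 2-fold change (adjusted p = 0.190). The call at 21 h, at a log2 fold change of 1.02, was lost in the same ways, and also with no filter on low counts or without 21 h replicate 2. Spef1, which overlaps Cdc25b on the other strand, had at most 0.713 CPM at 0, 15 and 24 h.

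The third phosphatase, Cdc25c, was at -1.71 after 24 h on the log2 scale, and Ccna2, cyclin A2, at -2.02. Cks2, a small CDK-binding subunit, was at -1.23. Ccnb2, cyclin B2, was not called at any time. Its level was 29.9 and 27.4 CPM at 0 h, 46.7 and 48.3 after 12 h and 18.8 and 18.5 after 24 h, so that its libraries stood above the untreated ones at 12 h and below them at 24 h. The log2 fold changes of Ccnb1 and Ccnb2 after 12 h had opposite signs, -1.37 and 0.73.

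**Figure D4:**
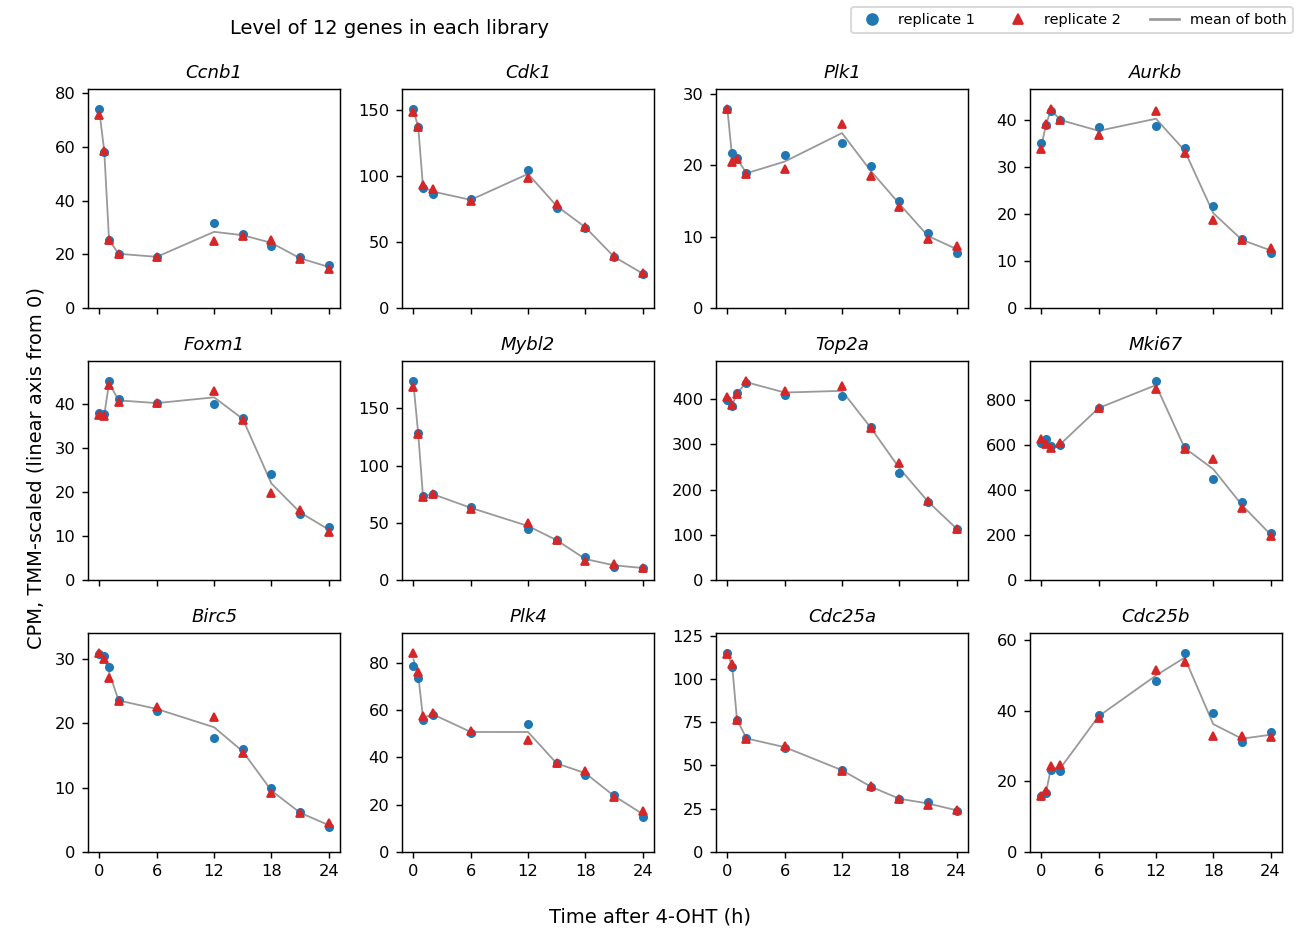
CPM after TMM scaling (y axis, linear from 0, own range in each panel) of 12 genes by hours after 4-OHT (x axis). Blue circles and red triangles are the 2 libraries of a time point and the line joins their means. Within 2 h Ccnb1, Mybl2, Cdc25a and Cdk1 drop most, Mki67 peaks at 12 h, and Cdc25b rises to 15 h.

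All 6 mitotic kinases were down at 24 h, with a median log2 fold change of -1.65. Plk1, the Polo kinase of mitotic entry and spindle assembly, was at 27.9 and 27.8 CPM at 0 h, 18.9 and 18.8 after 2 h, 23.2 and 25.8 after 12 h and 7.75 and 8.74 after 24 h. Its libraries were lower at 2 h than at 0 h, partly regained that level at 12 h, and were lowest at 24 h, with a log2 fold change of -1.75 ± 0.078 (adjusted p = 5.70e-15). Plk4, the kinase of centriole duplication, went from 78.7 and 84.2 CPM to 57.7 and 58.8 after 2 h, 53.9 and 47.5 after 12 h and 14.7 and 17.4 after 24 h (-2.34 ± 0.068, adjusted p = 3.44e-18).

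The log2 fold changes of Aurkb and Aurka at 12 h had opposite signs, 0.23 and -0.46. Aurkb, the kinase of the chromosomal passenger complex, was at 35.1 and 34.0 CPM at 0 h, 42.0 and 42.5 after 1 h, 38.7 and 42.0 after 12 h and 11.7 and 12.8 after 24 h, above the untreated libraries at first and below them at the end (-1.49 ± 0.067 after 24 h, adjusted p = 8.35e-15). Aurka, the spindle pole kinase, was lower at 12 h, at 25.8 and 27.3 CPM against 36.6 and 36.5 at 0 h, and reached 10.6 and 10.5 after 24 h (-1.79 on the log2 scale). Ttk, the checkpoint kinase MPS1, was at -1.56 after 24 h and Nek2, a centrosome kinase, at -1.01.

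In the spindle checkpoint and APC/C group 5 of 6 were down at 24 h, with a median of -1.64. Mad2l1, which encodes the checkpoint protein MAD2, was at 40.1 and 40.6 CPM at 0 h and 9.90 and 11.0 after 24 h (-1.94). The checkpoint kinases Bub1b and Bub1 were at -1.77 and -1.67, separase (Espl1) at -1.61 and the APC/C activator Cdc20 at -1.35 on the same scale. Pttg1, the separase inhibitor securin, was not called. It was at 6.20 and 6.89 CPM at 0 h, 11.2 and 11.5 after 12 h and 4.41 and 4.48 after 24 h, higher than untreated at 12 h and lower at 24 h.

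Both transcription factors of the G2/M program were down at 24 h. Mybl2, which encodes B-MYB, was at 174 and 169 CPM at 0 h, 128 and 127 after 30 min and 73.6 and 72.7 after 1 h. It was at 44.7 and 49.6 CPM at 12 h, 19.7 and 16.8 after 18 h and 10.8 and 10.0 after 24 h. Apart from 2 h, each time point had a lower mean than the one before, and Mybl2 fell by 1.23 ± 0.062 on the log2 scale at 1 h (adjusted p = 5.14e-13). Its fall at 24 h, by 4.04 ± 0.078 (adjusted p = 3.19e-21), was the largest of the 46 genes. Foxm1, a forkhead activator of late cell-cycle genes, was at 37.7 and 37.4 CPM at 0 h, 45.1 and 44.3 after 1 h, 40.0 and 42.8 after 12 h, 24.1 and 19.6 after 18 h and 11.9 and 10.9 after 24 h. Its level at 12 h was not below that at 0 h, and its log2 fold change was -1.72 ± 0.075 after 24 h (adjusted p = 4.44e-15).

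Of 7 centromere, kinetochore and passenger genes 5 were down at 24 h, with a median of -1.23. Birc5, which encodes survivin of the passenger complex, was at 30.8 and 30.9 CPM at 0 h, 23.6 and 23.5 after 2 h, 17.7 and 21.0 after 12 h and 3.88 and 4.42 after 24 h. The levels declined at every step, and the log2 fold change at 24 h was -2.89 ± 0.086 (adjusted p = 5.15e-18). Incenp, the scaffold of the same complex, was at 327 and 330 CPM at 0 h, 210 and 216 after 12 h and 78.9 and 78.8 after 24 h (-2.06). Among the members, the third passenger gene, Aurkb, had not declined at 12 h, at a log2 fold change of 0.23 beside -0.67 for Birc5 and -0.62 for Incenp.

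By adjusted p alone, the kinetochore genes Cenpf, Cenpe and Ndc80 were higher at 12 h than at 0 h. Cenpf, a kinetochore protein of G2 and mitosis, was at 93.4 and 96.5 CPM at 0 h, 175 and 170 after 12 h and 49.4 and 45.2 after 24 h. Cenpe, the kinetochore motor, was at 159 and 164, 221 and 219, and 66.0 and 71.9 CPM at the same times. Their log2 fold changes at 24 h were -1.01 and -1.23. Ndc80 and Nuf2, partners in the microtubule-binding NDC80 complex, differed in size, with -0.60 for Ndc80, which was not called, and -1.97 for Nuf2. Cenpa, the centromeric histone, was at -0.80 and was not called.

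Among spindle motors and assembly factors 7 of 8 tested genes were down at 24 h, with a median of -1.61. The falls on the log2 scale were close together: -1.86 for Hmmr, a spindle assembly factor, -1.85 for the chromokinesin Kif4, -1.84 for Kif11, which keeps spindle poles apart, and -1.75 for Kif23, a motor of the central spindle. They were smaller for the microtubule nucleation factor Tpx2 (-1.47), Kif20a (-1.32) and the depolymerase Kif2c (-1.23). Aspm, a spindle pole protein, was at 109 and 115 CPM at 0 h, 219 and 204 after 12 h and 68.8 and 68.4 after 24 h. Its log2 fold change at 12 h was the highest among these 8 genes (0.92), its value at 24 h was -0.71, and it was not called at any time.

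Of 3 cytokinesis genes 2 were down at 24 h. Anln, which encodes the actin-binding protein anillin, was at 411 and 418 CPM at 0 h, 383 and 410 after 12 h and 128 and 128 after 24 h (-1.70). Ect2, the exchange factor that activates RHOA at the cleavage site, was at 186 and 192 CPM at 0 h, 340 and 320 after 12 h and 93.0 and 94.6 after 24 h (-1.01). It was above the untreated libraries from 1 h to 18 h and below them at 21 and 24 h. Racgap1, its partner in the central spindle, was at -0.72 and was not called.

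Of 6 chromosome structure genes 5 were down at 24 h, with a median of -1.65. Top2a, the topoisomerase that untangles sister chromatids, was at 398 and 405 CPM at 0 h, 408 and 429 after 12 h and 114 and 113 after 24 h (-1.82 ± 0.039, adjusted p = 1.44e-20). Mki67, whose product coats mitotic chromosomes, was at 609 and 627 CPM at 0 h, 763 and 765 after 6 h, 884 and 847 after 12 h and 208 and 195 after 24 h. It stood above the untreated libraries at 6 and 12 h, at 0.49 ± 0.057 on the log2 scale at 12 h (adjusted p = 1.45e-07, under the fold threshold), and fell by 1.61 ± 0.060 after 24 h (adjusted p = 2.20e-16). The condensin genes Ncapd2, Smc2 and Ncapg were at -1.78, -1.68 and -1.43 after 24 h. Smc4, at 419 and 420 CPM at 0 h and 230 and 236 after 24 h, was at -0.85 and was not called.

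The 7 genes never called in either direction (Aspm, Ccnb2, Cenpa, Ndc80, Pttg1, Racgap1 and Smc4) all had an adjusted p under 0.01 after 24 h, with log2 fold changes from -0.85 to -0.56, so the fold threshold set their status. Reads of overlapping genes can be shared, and the sources used here do not give the strand setting of the counting. In GENCODE M21, 27 of the 47 genes overlap another gene, 12 on the same strand and 17 on the other. Of 20 tested genes with no overlap 15 were down at 24 h (median -1.71), and of 26 with an overlap 23 were (median -1.65). Of the genes that overlap tested members on the other strand and were themselves tested, Elovl1 (over Cdc20), Cdc23 (over Kif20a) and Exosc9 (over Ccna2) had log2 fold changes at 24 h of -0.97, -0.84 and -0.74, Spef1 (over Cdc25b) -0.76, Pdzd11 (over Kif4) 0.085 and Lcorl (over Ncapg) 0.51. How far shared reads enter these values was not tested. Across the 46 genes the log2 fold change at 24 h had a Spearman correlation of 0.018 with gene span, from 4452 to 101478 bases for all 47, and of -0.26 with the level at 0 h in the same libraries.

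Wider lists of cell-cycle genes were counted at 24 h against the same 20.1% down and 20% up. Subunits of the APC/C and Fzr1, which are not restricted to mitosis, gave 0 of 15 down or up by edgeR, with a median log2 fold change of 0.015, and at an unadjusted p under 0.05 7 were lower and 6 higher. Other kinetochore and centromere genes gave 20 of 30 down and none up (median -1.51), among them Nsl1 (-2.87), Cenpn (-2.69) and Cenpi (-2.50). Other spindle and cytokinesis genes gave 19 of 26 down and none up (median -1.48), led by Sapcd2 (-2.997), Kif15 (-2.33) and Cdca8 (-2.10). Of 4 further condensin subunits 3 were down (Ncapg2 -2.72, Ncaph -1.85 and Ncapd3 -1.07).

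Among other regulators of mitotic entry and exit 11 of 17 were down and 2 up (median -1.83). Plk3, a stress-responsive Polo kinase, was at 6.42 and 7.07 CPM at 0 h and 0.537 and 0.516 after 24 h, and Cdc14b, a phosphatase, went from 3.59 and 3.58 CPM to 25.02 and 24.72 (log2 fold change 2.79 ± 0.076, adjusted p = 1.08e-18). Cohesin and its regulators gave 5 of 14 down and 1 up (median -0.50), and those with the largest falls, Cdca5 (-2.51), Esco2 (-2.00) and Sgo1 (-1.48), encode regulators of cohesion rather than ring subunits. Of 17 DREAM, MuvB, RB and E2F genes 9 were down and 2 up (median -1.14), with E2f8 (-3.84), E2f7 (-3.07), both E2F repressors, and Tfdp1 (-2.60) falling most. Replication and S-phase genes, listed for comparison, gave 19 of 21 down and none up with a median of -2.29, and their largest falls were Tyms (-5.09), Ccne1 (-4.02) and Rrm2 (-3.63). The median of that list at 12 h was -0.35, beside 0.066 for the mitotic genes, and the difference between the lists was not tested. At an unadjusted p under 0.05, 1 gene each of the kinetochore and spindle lists and 0 of the condensin and replication lists were higher at 24 h.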

How the data were processed

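Chromatin-associated RNA-seq libraries (rRNA depletion, NEBNext Ultra II Directional kit) were made by the authors from nuclei of B3 cells. Reads were aligned by STAR within nf-core/rnaseq to mm10 and counted per gene with featureCounts, introns included, and raw counts were deposited by the authors without normalization. The annotation release, strand setting and treatment of reads shared between genes are not given in the sources used here. Reads carry no molecular identifiers.

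Columns were assigned to libraries by their names and all 20 were used. Genes that reached 10 counts in 2 or more libraries were fitted in one model with time point as a factor (edgeR 4.0.16, TMM, quasi-likelihood test, R 4.3.3; limma 3.58.1). Calls needed an adjusted p under 0.01 and a fold change above 2, and change over the course used the joint test of all induced time points. DESeq2 1.42.0 was an alternative. Counts for 24 h against 0 h were simulated from the fitted levels and spreads. On them edgeR called 200 of 200 changed genes of 16024 in the right direction and 0 others. All changes were set above 2-fold, and far fewer genes changed than were called in the data, so the scaling was not tested. Calling at the other time points, and of genes close to the 2-fold threshold, was not tested in this way.

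The member genes, their grouping by role and the wider lists were chosen with earlier results of these data known. Values by library are given for 8 genes picked by role (Ccnb1, Cdk1, Plk1, Aurkb, Foxm1, Mybl2, Top2a and Mki67), for the 6 largest falls and up to 4 largest rises at 24 h and up to 4 largest changes at 2 h among called members, and for some others whose values illustrate a count. Up to 3 called genes with the largest change are named from each wider list. Positions and overlapping genes were read from GENCODE M21 and promoter windows from RefSeq (GRCm38.p6). The settings varied were the scaling (size factors of DESeq2, or library totals), filters on low counts, a replicate block, the tool (DESeq2), thresholds, a test against a 2-fold change, and leaving out each library. The comparisons of 24 h with 6 h and 12 h, and the calls by adjusted p alone at 12 h, were added after the data were seen. The other assays of the study were not analysed here.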

Additional observations from a re-analysis of the deposited data

Results flagged for a closer look

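For 19 of the 46 tested genes, the log2 fold changes against 0 h had opposite signs at 12 h and 24 h. Each had an adjusted p under 0.01. The rule also required a call for 24 h against 12 h by edgeR's quasi-likelihood test. The adjusted p of that test was at most 2.82e-12, and as part of the selection it adds no support. How many of all genes meet the rule was not counted. The comparison of 24 h with 12 h was chosen after the data were seen. All 19 were higher than untreated at 12 h and lower at 24 h. The log2 change from 12 h to 24 h was -2.10 for Mki67, -2.08 for Hmmr, -1.96 for Bub1, -1.94 for Kif23, -1.93 for Cdc25c, -1.87 for Cenpf and -1.81 for Ect2. It was -1.78 for Ttk, -1.77 for Ncapg, -1.72 for Aurkb, -1.67 for Cenpe, -1.62 for Aspm and -1.60 for Nek2. For Kif2c it was -1.58, for Kif20a -1.56, for Pttg1 -1.35, for Ccnb2 -1.35, for Racgap1 -1.09 and for Ndc80 -1.05. The 12 h values ran from 0.19 for Kif23 to 0.92 for Aspm. Replicates at 12 h differed by -0.33 to 0.27 on the log2 scale across the members, a wider range than the -0.13 to 0.15 at 0 h, and the part of that spread in the single values was not tested. Cdc25b, in contrast, was higher than untreated at both times.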

How the results depend on the processing

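Among the single genes picked by role or size of change, no log2 fold change at 2, 12 or 24 h changed its sign under any alternative. For counts and medians the size was compared and not the direction. Of the counts of members called, 302 recomputed values stayed within 1.5 times the value reported and 20 did not, and of the medians 82 stayed within the spread between replicates and 8 did not. DESeq2 called 35 members down at 24 h, all of them among edgeR's 38, and 36 changed over the course. The number down at 24 h was 40 with library totals, 37 with at least 10 counts required in every library and 35 in a test against a 2-fold change.

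Scaling by library totals alone moved the median of all genes by -0.12 after 18 h, -0.23 after 21 h and -0.26 after 24 h from TMM, and that of the members to -0.27 after 15 h, -0.77 after 18 h, -1.37 after 21 h and -1.94 after 24 h. With that scaling 0 members were up at 21 h and 0 after 24 h, and with a test against a 2-fold change also 0 at each, since Cdc25b lies close to the threshold. With no filter on low counts the median at 6 h was -0.087 and 0 were up at 21 h. Without a fold threshold, where the share of all genes called rises too (to 4.74% down and 3.7% up at 30 min, and 36% and 35.3% at 18 h), the members down and up were 7 and 1 after 30 min, 11 and 5 after 1 h, 20 and 7 after 2 h, 19 and 9 after 6 h, 10 and 20 after 12 h, 26 and 8 after 15 h, and 37 and 6 after 18 h.

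With one library left out at a time, the number down at 24 h ran from 36 to 38, at 21 h from 26 to 28, and at 18 h from 9 to 10. The median at 24 h ran from -1.71 to -1.64 and at 12 h from 0.052 to 0.12, the latter without 12 h replicate 1. The members up at 21 h ran from 0 to 1, with 0 without 21 h replicate 2. By adjusted p alone, 17 to 18 were higher at 12 h with a library left out.

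Replicate numbers did not pair the libraries. Across 7876 genes, deviations of same-numbered libraries correlated from -0.678 to 0.477 over 45 pairs of time points (mean 0.030), and 18 pairs were over 0.1. With a replicate block, 38 members were down at 24 h with a median of -1.68, 28 were down at 21 h and 9 after 18 h. With 2 libraries per time point, the tests rest on a spread pooled over all time points, and the depth describes counting error only.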
